A study of Homo sapiens with 19 samples.

Results

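The miR-29 family was followed from Caco-2 cells into their culture medium. Caco-2 is an established human line of epithelial cells from the colorectum. The family's members were chosen by name, hsa-miR-29a-3p, hsa-miR-29b-3p and hsa-miR-29c-3p, which are 3 of the 1043 miRNAs listed in the 19 libraries of the series. All 3 were listed and all 3 passed the filter on low counts, together with 224 other miRNAs. The groups were cell lysate (3 libraries), total extracellular RNA (total exRNA, 4), P40 (4), the material sedimented from cleared medium at 40000 xg, P100 (4), what came down next at 100000 xg, and S100 (3 of 4), the fluid that remained above it. All cells were wild type, had been grown with 20% fetal bovine serum to 80% confluence and were then kept for 24 h without serum or antibiotics. Nucleic acids were first precipitated in the total exRNA and S100 preparations only, and lysate, P40 and P100 went into Trizol directly, so fraction and preparation cannot be told apart where these kinds are compared. The labels do not say whether replicates were separate cultures; the p-values therefore reflect the variation among these libraries, which may be technical.

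miRNAs are short RNAs that pair through their seed, bases 2 to 8, with messenger RNAs and lower their output. The miR-29 family is known for targeting collagens, elastin and other matrix genes, the DNA methyltransferases DNMT3A and DNMT3B and the survival factor MCL1. It is held down by MYC and by TGF-beta signalling, and it is regarded as a restraint on fibrosis and, in many carcinomas, as a tumour suppressor. miR-29b has been described as carrying a nuclear import element at its 3′ end and as decaying faster than miR-29a in dividing cells.

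The mature sequences, from RefSeq on GRCh38.p14, are shown because the 3 members share a seed and differ only outside it. Capitals mark the seed.
hsa-miR-29a-3p: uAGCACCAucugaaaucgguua
hsa-miR-29b-3p: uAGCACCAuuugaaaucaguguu
hsa-miR-29c-3p: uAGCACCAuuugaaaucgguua
The seed AGCACCA occurred in these 3 only, of 2370 distinct mature human names in the table (0.127%). Counting from the 5′ end, miR-29c-3p differed from miR-29a-3p by C10U alone, and miR-29b-3p differed from miR-29a-3p by C10U, G18A, U21G and A22U and was 1 base longer. How reads that match several miRNAs were handled is not given in the sources used here, so reads of miR-29a-3p and miR-29c-3p may have been exchanged and their single values are uncertain in that respect. Apart from this pair, no mature sequence of the same length came within 2 mismatches of any member. The next line marks in capitals the last 6 bases of miR-29b-3p, the element linked to nuclear import.
hsa-miR-29b-3p: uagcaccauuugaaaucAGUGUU
Read on the mature strand only, that ending was present in 2 of the 2370 names (0.0844%), and miR-29b-3p was the only miRNA with it among the 933 listed names that had a sequence.

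The family is made from 4 hairpins in 2 clusters, both on the minus strand. MIR29A (chr7:130876747-130876810) and MIR29B1 (chr7:130877459-130877539) lie 648 bases apart. In GENCODE 29, MIR29B1 is inside an exon of the long noncoding RNA gene LINC-PINT, which MIR29A overlaps in part. MIR29C (chr1:207801852-207801939) and MIR29B2 (chr1:207802443-207802523) lie 503 bases apart inside an exon of the long noncoding RNA gene MIR29B2CHG. Both miR-29b hairpins are shown because they release an identical 3p arm, in capitals, so that only their 5p arms tell which cluster a read came from.
MIR29B1: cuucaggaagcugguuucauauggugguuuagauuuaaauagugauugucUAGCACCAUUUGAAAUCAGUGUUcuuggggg
MIR29B2: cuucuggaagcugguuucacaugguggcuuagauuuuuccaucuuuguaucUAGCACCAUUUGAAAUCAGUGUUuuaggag

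Library totals were 198878 to 225290 counts in S100, 37453 to 157051 in lysate, 34427 to 61622 in total exRNA, 10490 to 26096 in P40 and 10017 to 27027 in P100. S100 replicate 1 held 48 counts, none of them of a member, and was left out. The 3 members together gave 827 counts in lysate, 773 in total exRNA, 226 in P40, 123 in P100 and 5575 in S100. The precision in the pellets is limited by these numbers. P40 replicates 1 and 2 had a higher mean Spearman correlation with total exRNA (0.862 and 0.850) than with the other P40 libraries (0.834 and 0.836), and P40 replicate 3 was closer to P100 (0.838 against 0.828). All 8 epithelial and gut markers used for the cell check, among them the miR-200 family and miR-192-5p, were present in lysate at 4.31% to 5.56% of counts, while mesenchymal markers made up 0.0160% to 0.0652%, with miR-199a-3p and miR-199a-5p at 0.

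Levels below are CPM, the usual depth-scaled counts, over the tested miRNAs after TMM scaling, and differences are log2 fold changes with SE from edgeR's quasi-likelihood test, adjusted by Benjamini-Hochberg over all 227 tested miRNAs. A member is said to rise or fall, or to be called, at an adjusted p below 0.05.

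S100 held the highest level of every member. In all comparisons of S100 with another group, the 3 S100 libraries lay above every library of that group for miR-29a-3p, miR-29b-3p and miR-29c-3p, and all 12 differences passed the test, beside 25.1% to 32.2% of all tested miRNAs called higher and 27.3% to 35.7% lying without overlap above the other group. The 4 comparisons share the S100 libraries, and 44 of the 227 tested miRNAs (19.4%) were called higher in all 4. P100 was at the other end for miR-29c-3p, which was lower there than in lysate and total exRNA. Outside S100, miR-29a-3p did not pass the test in any comparison. miR-29b-3p had its lowest group mean in lysate, where the difference passed against total exRNA and S100 but not against P40 or P100, and the call against total exRNA was lost in 6 of the alternatives.

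**Figure D1:**
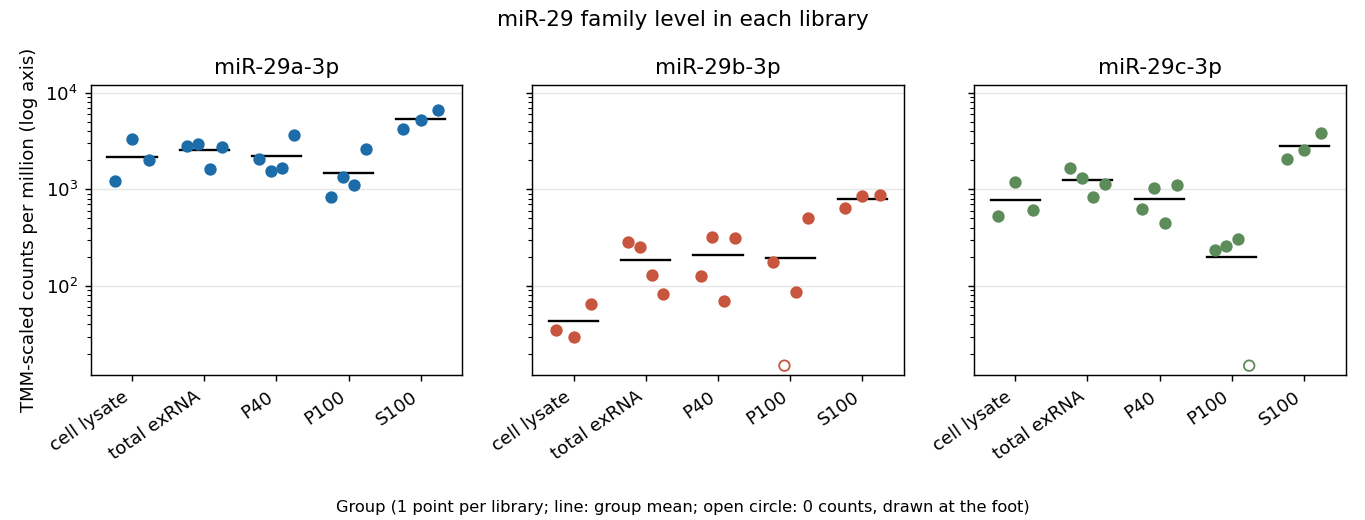
Level of each member in every library, in TMM-scaled CPM on a log axis, by group. Points are libraries, lines are group means and open circles at the foot are libraries with 0 counts. S100 lies above all other groups in each panel, lysate has the lowest mean for miR-29b-3p, where P100 also has a library at 0, and P100 is lowest for miR-29c-3p.

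miR-29a-3p, which comes from the chr7 cluster, was the most abundant member in every library. It had 1221, 3278 and 2014 CPM in lysate replicates 1 to 3. Total exRNA replicates 1 to 4 had 2817, 2974, 1622 and 2749 CPM. P40 had 2069, 1559, 1660 and 3637 CPM, and P100 830, 1334, 1095 and 2638 CPM. The lysate, total exRNA and pellet libraries overlapped throughout, and replicate 4, the shallowest library of each pellet, was the highest of its group in both. The part of depth in this was not tested. S100 replicates 2 to 4 had 4190, 5243 and 6611 CPM, so that the lowest S100 library stood above the highest of all others.

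The order of the group means of miR-29a-3p was S100 (5348 ± 1214 CPM, SD, n = 3), total exRNA (2541 ± 620, n = 4), P40 (2231 ± 963, n = 4), lysate (2171 ± 1037, n = 3) and P100 (1474 ± 803, n = 4). Only the step from S100 to its neighbour was larger than the spread. Among the 227 tested miRNAs it ranked 60th by mean level in lysate and 28th in S100.

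miR-29b-3p, made by both clusters, was rare in the cells. Lysate libraries held 1, 4 and 4 counts (34.9, 29.6 and 64.4 CPM). Total exRNA libraries held 11, 17, 7 and 3 counts (287, 252, 129 and 83.3 CPM). Every total exRNA library was above every lysate library, although its lowest, replicate 4, rested on 3 counts. P40 had 125, 322, 69.2 and 316 CPM from 2 to 6 counts, also above lysate throughout. P100 had 178, 0, 87.6 and 507 CPM from 0 to 5 counts and so spanned the range of the other groups outside S100. S100 libraries held 124, 203 and 167 counts (637, 845 and 876 CPM), above all others.

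The means of miR-29b-3p were 786 ± 130 CPM in S100 (SD, n = 3), 208 ± 130 in P40 (n = 4), 193 ± 222 in P100 (n = 4), 188 ± 97.1 in total exRNA (n = 4) and 43.0 ± 18.8 in lysate (n = 3). P40, P100 and total exRNA could not be ordered beyond their spread. Its rank among tested miRNAs went from 204th in lysate to 105th in S100.

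miR-29c-3p, from the chr1 cluster, was intermediate in most groups. Lysate libraries had 523, 1199 and 612 CPM. Total exRNA had 1669, 1317, 830 and 1139 CPM, and P40 627, 1021, 450 and 1107 CPM, both overlapping lysate. In P100 it had 237, 258, 306 and 0 CPM, from 4, 6, 7 and 0 counts, and all 4 libraries were below every library of every other group. Of all tested miRNAs, 22.9% lay without overlap below lysate in P100, 17.6% below total exRNA and 6.17% below P40. In S100, 33.9% lay without overlap above P100, and the share for all groups at once was not computed. Exact 95% counting intervals of single P100 libraries reached up to 368 to 567 CPM of the whole library, where the lowest P40 library had 498. S100 had 2079, 2538 and 3822 CPM, above all others. The means were 2813 ± 903 CPM in S100 (SD, n = 3), 1239 ± 351 in total exRNA (n = 4), 801 ± 314 in P40 (n = 4), 778 ± 367 in lysate (n = 3) and 200.5 ± 137 in P100 (n = 4), with total exRNA, P40 and lysate not separated beyond their spread.

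S100 against lysate asks which miRNAs of the cells had a different share in the fluid that remained after sedimentation. All 3 members rose and lay without overlap above lysate, beside 32.2% of tested miRNAs called higher, 30% called lower and 35.7% without overlap above lysate. miR-29b-3p rose by a log2 fold change of 4.17 ± 0.79 (edgeR adjusted p = 8.94e-05), the 21st highest of 227. miR-29c-3p rose by 1.82 ± 0.51 (edgeR adjusted p = 0.00315) and miR-29a-3p by 1.28 ± 0.43 (edgeR adjusted p = 0.0114). Within batch numbers 2 and 3, the only ones both groups had, each member had the same sign. Without lysate replicate 2 the values for miR-29a-3p and miR-29c-3p were 1.96 and 2.54, without lysate replicate 3 that for miR-29b-3p was 4.95, and without S100 replicate 2 the values were 1.83, 4.68 and 2.39 for miR-29a-3p, miR-29b-3p and miR-29c-3p. The log2 fold changes of all miRNAs kept in the main fit and the alternative shifted too. Their median shift was 0.29 to 0.40 when any 1 library of lysate or S100 was left out. The filter also changed in those fits and kept 239 to 244 miRNAs. Without the low-count filter the median shift was 0.69. With the median shift subtracted, over 12 alternatives, miR-29a-3p remained at 1.06 to 1.67, miR-29b-3p at 3.79 to 4.64 and miR-29c-3p at 1.63 to 2.25.

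**Figure D2:**
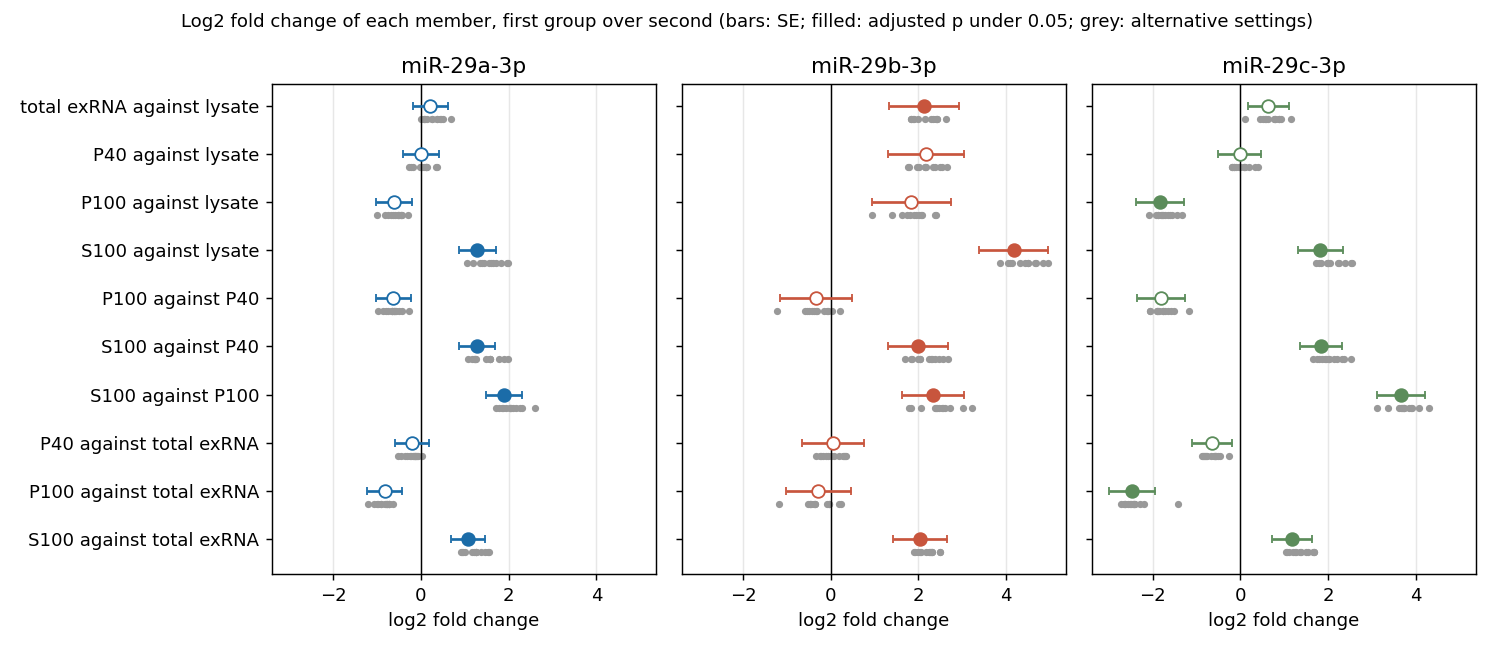
Log2 fold change of each member (horizontal axis) in the 10 comparisons, first group over second, with SE bars. Filled points passed at an adjusted p below 0.05, open ones did not, and grey dots are the alternative settings and fits without 1 library. All S100 comparisons lie to the right of 0, and miR-29c-3p lies to the left of 0 in the 3 comparisons of P100 with lysate, P40 and total exRNA.

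S100 against total exRNA compares fractions with the same RNA preparation. The 3 members rose, against a background of 29.5% called higher and 33.9% lying without overlap above total exRNA: miR-29b-3p by 2.04 ± 0.61 (edgeR adjusted p = 0.00586), miR-29c-3p by 1.18 ± 0.46 (edgeR adjusted p = 0.0269) and miR-29a-3p by 1.07 ± 0.39 (edgeR adjusted p = 0.0198). The signs were the same in all 3 shared batch numbers. Without total exRNA replicate 3, the lowest of its group for miR-29a-3p and miR-29c-3p, these were 0.91 (edgeR adjusted p = 0.0669) and 1.03 (edgeR adjusted p = 0.0809) and no longer passed.

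Against the pellets the members rose as well. In S100 against P40, where 25.1% of miRNAs were called higher and 27.3% lay without overlap above P40, the log2 fold changes were 1.28 ± 0.40 for miR-29a-3p, 1.99 ± 0.68 for miR-29b-3p and 1.84 ± 0.48 for miR-29c-3p (edgeR adjusted p = 0.00974, 0.0158 and 0.00292). Without P40 replicate 4 the value for miR-29a-3p was 1.90, in a fit where the miRNAs shifted by a median of 0.27. In S100 against P100, where 28.6% were called higher and 33.9% lay without overlap above P100, they were 1.90 ± 0.41, 2.33 ± 0.71 and 3.65 ± 0.54 (edgeR adjusted p = 0.000464, 0.00734 and 6.83e-06), and without P100 replicate 4 the value for miR-29b-3p was 3.21. With all libraries thinned to 10017 counts in a single random draw, miR-29b-3p no longer passed in either comparison (edgeR adjusted p = 0.0717 and 0.0524). Blood cell and serum markers made up 0.00799% to 0.0151% of counts in S100, against 0.0401% to 0.0439% in lysate and 0.273% to 0.343% in P40. In S100, 5 of the 7 were detected, with miR-142-5p and miR-150-5p at 0, while miR-451a, miR-144-3p and miR-223-3p were detected there but not in lysate. Of the 2 markers that passed the filter, 1 was called higher and 1 lower in S100 than in lysate, beside 32.2% and 30% of all tested miRNAs. The summed share thus hides markers that differ in direction. The part of these markers in the S100 values was not tested.

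Total exRNA against lysate asks which cellular miRNAs were over- or underrepresented in unfractionated medium. miR-29b-3p rose by 2.13 ± 0.79 (edgeR adjusted p = 0.0401), beside 18.9% of miRNAs called higher and 19.4% lying without overlap above lysate. The value was 1.99 with the replicate number as a block, which ended the call (edgeR adjusted p = 0.0788). The call was also lost without lysate replicate 1 (edgeR adjusted p = 0.0623), lysate replicate 2 (0.171), total exRNA replicate 1 (0.0962) or total exRNA replicate 2 (0.0791), and at equal depth (0.329). miR-29c-3p (0.64 ± 0.47) and miR-29a-3p (0.21 ± 0.40) did not pass. Whether the members differed from each other in this was not tested. Blood cell markers also had a larger share in total exRNA (0.0901% to 0.232%, 6 of 7 detected, with miR-142-5p at 0) than in lysate (4 of 7 detected, with miR-451a, miR-144-3p and miR-223-3p at 0), and their part in the miR-29b-3p value was not tested.

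P40 against lysate gave no call for any member, beside 13.7% of miRNAs called higher and 13.2% lower. miR-29b-3p, without overlap above lysate like 12.8% of miRNAs, had 2.18 ± 0.86 (edgeR adjusted p = 0.0655), and it passed in DESeq2 (2.37, adjusted p = 0.0152), with library size only (2.48, edgeR adjusted p = 0.0348) and without P40 replicate 3 (2.53, edgeR adjusted p = 0.0330). miR-29a-3p had 0.01 ± 0.41 and miR-29c-3p -0.01 ± 0.49.

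P100 against lysate gave a fall of miR-29c-3p, with a log2 fold change of -1.83 ± 0.55 (edgeR adjusted p = 0.0116), beside 20.7% of miRNAs called lower and 22.9% lying without overlap below lysate. It was negative in all 3 shared batch numbers. The call was lost without lysate replicate 2 (-1.44, edgeR adjusted p = 0.0677) and at equal depth (-1.32, edgeR adjusted p = 0.111). miR-29a-3p had -0.62 ± 0.41, which did not pass. miR-29b-3p had 1.84 ± 0.91 (edgeR adjusted p = 0.116), and it passed in DESeq2 (2.06, adjusted p = 0.0372) and without P100 replicate 2 (2.37, edgeR adjusted p = 0.0336), the library with 0 counts of it. Blood cell markers made up 0.140% to 0.283% of counts in P100 (5 of 7 detected, with miR-142-3p and miR-142-5p at 0), and their part in these values was not tested.

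The 2 pellets and total exRNA were compared in the same way. In P100 against P40, with 2.2% of miRNAs called higher, 2.64% lower and 6.17% without overlap below P40, miR-29c-3p had -1.82 ± 0.55 (edgeR adjusted p = 0.0551) and was lower in P100 in each of the 4 batch numbers. It passed in DESeq2 (-1.71, adjusted p = 0.0229) and with library size only (-2.06, edgeR adjusted p = 0.0220), while at equal depth it had -1.17 (edgeR adjusted p = 0.224). miR-29a-3p (-0.62 ± 0.40) and miR-29b-3p (-0.34 ± 0.81) did not pass. In P100 against total exRNA, with 14.5% called lower and 17.6% without overlap below total exRNA, miR-29c-3p fell, with a log2 fold change of -2.47 ± 0.52 (edgeR adjusted p = 0.00111), the 217th of 227 from the top. It was lower in all 4 batch numbers. At equal depth it had -1.43 (edgeR adjusted p = 0.0730). miR-29a-3p had -0.83 ± 0.39 (edgeR adjusted p = 0.108), and it passed in DESeq2 (-0.90, adjusted p = 0.0415) and without P100 replicate 4 (-1.21, edgeR adjusted p = 0.0302). miR-29b-3p had -0.29 ± 0.74. In P40 against total exRNA, with 5.73% called higher and 6.17% lower, no member passed (miR-29a-3p -0.20 ± 0.38, miR-29b-3p 0.05 ± 0.71, miR-29c-3p -0.65 ± 0.46).

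miR-29b-3p had a larger share of the family in S100 than in the cells. P40 shares were also larger, on 2 to 6 counts per library, and P100 spanned the whole range. Shares of the summed counts of the 3 members need no scaling between libraries, and no test was made on them. miR-29b-3p made up 1.96%, 0.657% and 2.40% of the family in lysate replicates 1 to 3. In S100 it made up 9.22%, 9.79% and 7.74%, above every lysate library. In total exRNA it made up 6.01%, 5.54%, 5.00% and 2.10%, of which replicate 4 overlapped lysate. P40 had 3.17% to 11.1%, above every lysate library. Its lowest, replicate 3, held 2 of 63 counts, and the exact 95% interval of 0.387% to 11.0% covers the lysate shares. P100 had 0% to 16.1%, with a mean of 9.07% against 8.92% in S100. Summed over libraries it held 1.09% in lysate (9 of 827 counts, exact 95% interval 0.499% to 2.06%) and 8.86% in S100 (494 of 5575, 8.13% to 9.64%). Intervals here and below cover counting error only.

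miR-29a-3p held 68.6% to 74.9% of the family in lysate and 58.5% to 60.8% in S100, without overlap. Its ratio to miR-29c-3p was 2.33 to 3.29 in lysate, 1.73 to 2.07 in S100 and 1.69 to 2.42 in total exRNA, the last overlapping lysate. In P100 that ratio was 3.50, 5.17 and 3.57 in replicates 1 to 3, and replicate 4 had 26 counts of miR-29a-3p and 0 of miR-29c-3p. In summed counts P100 was the group with the least miR-29c-3p beside miR-29a-3p, 17 counts against 96. P40 ranged from 1.53 to 3.69, with replicate 2 alone below 3, and so overlapped P100. Over the 18 libraries the log2 CPM of miR-29a-3p and miR-29c-3p, which share 21 of 22 bases, had a Pearson coefficient of 0.58 and a Spearman coefficient of 0.83. P100 replicate 4, with 0 counts of miR-29c-3p, decided the Pearson value: without that library, a choice made after seeing the data, it was 0.93, and after removal of group means it went from -0.17 to 0.73.

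**Figure D3:**
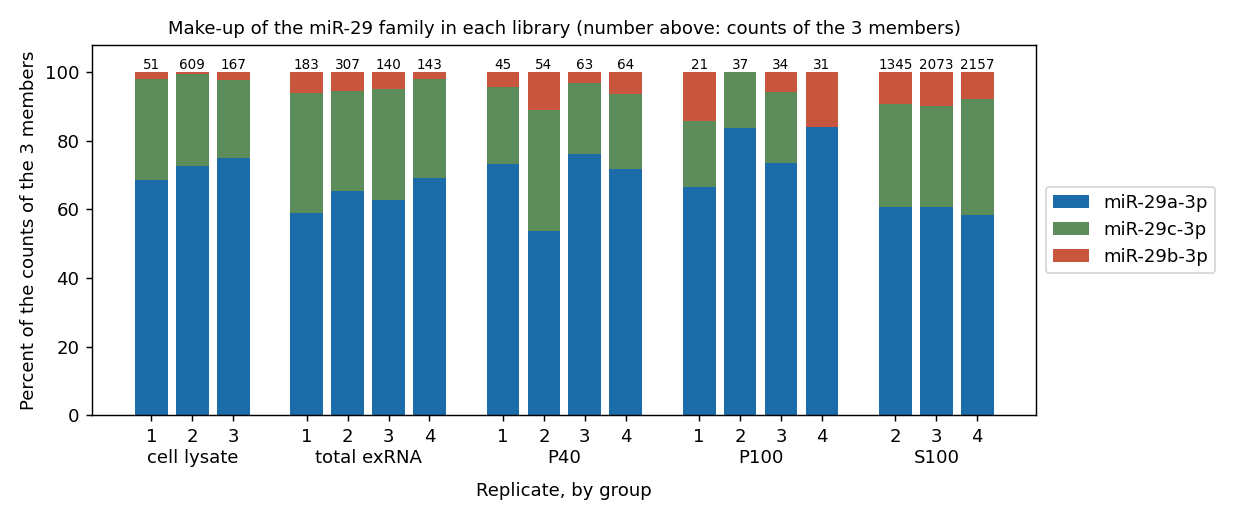
Share of each member in the summed counts of the 3 members (vertical axis, percent), 1 bar per library, by group and replicate, with that sum above the bar. miR-29b-3p takes 0.657% to 2.40% in lysate, 7.74% to 9.79% in S100 and 0% in P100 replicate 2, and miR-29c-3p is 0% in P100 replicate 4, where 31 counts were available.

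The opposite, 5p, arms had few or no counts outside S100. Their sequences are shown because they, unlike the 3p arms, have different seeds, in capitals, and can be told apart by cluster.
hsa-miR-29a-5p: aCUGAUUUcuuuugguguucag
hsa-miR-29b-1-5p: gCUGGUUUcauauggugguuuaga
hsa-miR-29b-2-5p: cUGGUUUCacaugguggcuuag
hsa-miR-29c-5p: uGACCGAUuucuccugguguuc
In S100 replicates 2 to 4, miR-29a-5p had 9, 7 and 14 counts, miR-29c-5p 10, 8 and 9, miR-29b-1-5p 23, 29 and 14, and miR-29b-2-5p 3, 10 and 7. miR-29a-5p and miR-29c-5p had 0 counts in all lysate, total exRNA, P40 and P100 libraries. Against the level of 3 counts over the lysate libraries, miR-29a-5p was at least 4.05-fold and miR-29c-5p at least 3.65-fold higher in S100. miR-29b-1-5p had 66 counts in S100 and 7 in lysate, a ratio of 3.82 (exact 95% counting interval 1.75 to 9.88). For miR-29b-2-5p, with 20 counts in S100 and 2 in lysate, the ratio was 4.05 and its interval included 1 (0.985 to 35.8). In single P40 and P100 libraries 3 counts correspond to 111 to 299 CPM of the whole library, while the 5p arms had 15.1 to 129 CPM in S100 libraries, so that most such levels were not detectable in the pellets at this depth. For single total exRNA libraries 3 counts were 48.7 to 87.1 CPM and for single lysate libraries 19.1 to 80.1 CPM. Lower levels could be missed there too.

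**Figure D4:**
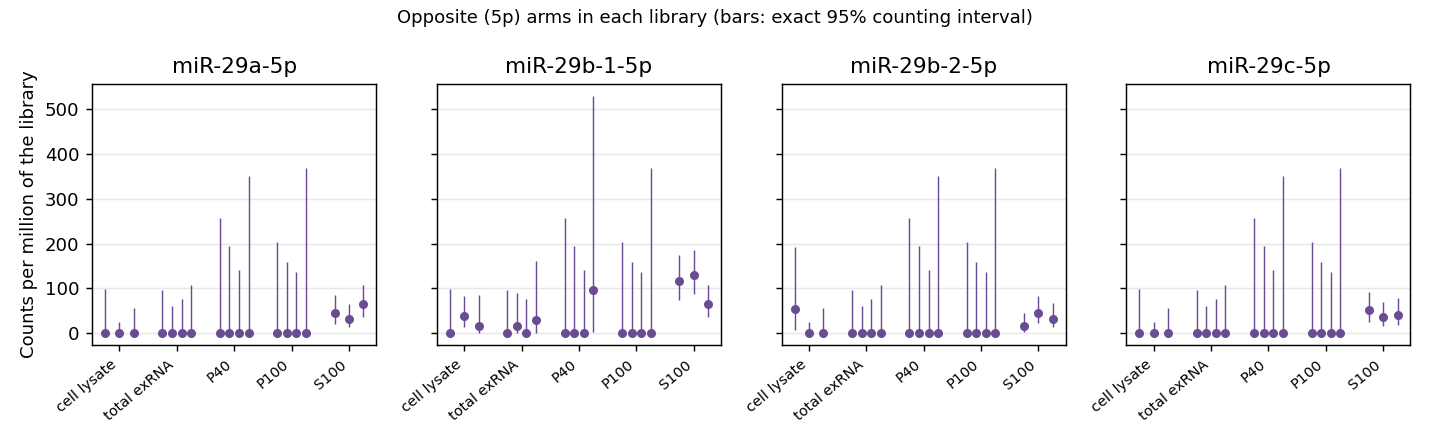
CPM of the whole library (vertical axis) for the 4 opposite arms in each library, by group, with exact 95% counting intervals as bars. All 4 arms are above 0 in every S100 library, and the long bars in P40 and P100 show the limit set by their depth.

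In summed counts the 5p arms made up a larger part of miR-29b in lysate than in every other group, on few counts outside S100. Lysate held 9 counts of miR-29b-3p and 9 of its 5p arms, a 5p share of 50.0% (exact 95% interval 26.0% to 74.0%), with 20.0% to 66.7% in single libraries. S100 held 494 and 86, a share of 14.8% (12.0% to 18.0%), with 11.2% to 17.3% in single libraries and all 3 below the lysate libraries, which held 3 to 10 counts of both arms. No test was made on these shares. In S100 the 5p share was 0.891% for miR-29a (exact 95% interval 0.602% to 1.27%) and 1.52% for miR-29c (1.01% to 2.21%). In lysate it was 0 of 603 counts for miR-29a (exact 95% interval 0% to 0.610%) and 0 of 215 for miR-29c (0% to 1.70%). For both, the lysate and S100 intervals overlapped, for miR-29a only between 0.602% and 0.610%. Overlap of intervals does not show that the shares were equal.

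The 3 miRNAs most like each member in level were taken by Pearson's coefficient of log2 CPM over all 18 libraries, as a description. For miR-29a-3p they were miR-106b-5p (0.82), miR-17-3p (0.79) and miR-338-3p (0.78). For miR-29b-3p they were miR-301b-3p (0.75), miR-4690-5p (0.74) and miR-574-5p (0.73), and for miR-29c-3p miR-33a-5p (0.86), miR-378c (0.85) and miR-106a-5p (0.85). The 18 points share their groups and differ in depth, so these values are no independent pairs. No family member was among them. Without P100 replicate 4 miR-29a-3p and miR-29c-3p had the 0.93 given above, but the ranking was not repeated without that library. Pearson's coefficient was 0.64 for miR-29a-3p with miR-29b-3p (0.65 without that library) and 0.30 for miR-29b-3p with miR-29c-3p (0.75 without it).

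Other miRNAs tied to the same biology are given by their counts, beside the 32.2% called higher and 30% called lower of all tested miRNAs in S100 against lysate. Of 12 other miRNAs regarded as restraining fibrosis, among them the miR-200 family and let-7b-5p, 10 were tested, and in S100 against lysate 1 rose and 4 fell (median log2 fold change -0.69, against -0.04 over all tested miRNAs). Of 7 regarded as promoting it, 5 were tested, with 1 rise and 1 fall. miR-21-5p, the best known of these, had 0.48 ± 0.36 in S100 against lysate and fell in S100 against total exRNA, with a log2 fold change of -1.02 ± 0.34 (edgeR adjusted p = 0.0136), where the miR-29 members rose. Of 8 other miRNAs known to target DNA methylation enzymes, 6 were tested, with 1 rise and 1 fall in S100 against lysate. These counts are small, and nothing particular to the lists is read from them. miR-148a-3p, which targets DNMT1, had 0.05 ± 0.42 there and fell against total exRNA (-1.29 ± 0.40, edgeR adjusted p = 0.00742). Of all miRNAs in these lists, miR-192-5p and miR-185-5p were called higher in each of the 4 comparisons in which miR-29a-3p was, by 1.75 ± 0.43 and 3.35 ± 0.79 against lysate. Of all 227 tested miRNAs, 44 (19.4%) were called higher in all 4 comparisons, which share the S100 libraries.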

How the data were processed

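Small RNA libraries (RealSeq-AC kit, single reads of 50 bases) were counted per mature miRNA by the authors, who deposited raw counts, 1 file per library, listing miRNAs with at least 1 count. Cutadapt 1.16, FastQC and Bowtie2 with GRCh38 are named in the submitters' processing notes. The treatment of reads matching several miRNAs is not given in the sources used here. Absent names were taken as 0. S100 replicate 1 was dropped for listing under 100 miRNAs. In R 4.3.3 with edgeR 4.0.16, filterByExpr (minimum count 10, minimum total 15) kept 227 miRNAs with 98.5% to 99.1% of counts, TMM scaled the libraries, and 1 robust quasi-likelihood model over 5 groups gave 10 comparisons. Log2 CPM used a prior count of 2, and SE was derived from F. Higher and lower refer to shares of a library, not to amounts. On simulated data the fit recovered few of the true 2-fold changes and most of the 4-fold ones. A difference that did not pass is therefore not shown to be absent. DESeq2 1.42.0 and the other alternatives are covered in the closing section.

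The labels give a batch number equal to the replicate number, which pairs samples by label. Same-numbered libraries did not deviate together as a rule: 7 of 32 pairs had a correlation over 0.1 (median -0.00195). The block is an alternative. Members and lists were chosen with earlier results of these data known. Named miRNAs are the members, their opposite arms, the 3 most alike to each member, miR-21-5p, miR-148a-3p, and list miRNAs called as a member was in all its calls.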

Additional observations from a re-analysis of the deposited data

Results flagged for a closer look

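In 18 groups of 4 libraries examined (3 members, 3 groups, level and share), 2 had a single library far from the other 3, where chance flags about 1 in 20. miR-29a-3p in total exRNA had 1622 CPM in replicate 3, against 2749 to 2974 in the others. miR-29c-3p made up 35.2% of the family in P40 replicate 2, from 19 of 54 counts, against 20.6% to 22.2% in the other P40 libraries.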

How the results depend on the processing

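Values are log2 fold changes, first group over second. Direction and call of every S100 result held with DESeq2, library size only, no low-count filter, the replicate block and the 2 groups alone. At equal depth calls were lost for miR-29b-3p in S100 against P40 (1.68), S100 against P100 (1.84) and total exRNA against lysate (1.82), and for miR-29c-3p in P100 against lysate (-1.32) and P100 against total exRNA (-1.43). The value of miR-29c-3p in P100 against P40, not called, was -1.17 there. Thinning leaves fewer counts and was a single random draw, so values near the threshold could differ in another draw. The replicate block ended the call of miR-29b-3p in total exRNA against lysate (1.99) and changed no other call. Calls were gained with DESeq2 for miR-29b-3p in P40 (2.37) and P100 (2.06) against lysate, miR-29c-3p in P100 against P40 (-1.71) and miR-29a-3p in P100 against total exRNA (-0.90), and with library size only for miR-29b-3p in P40 against lysate (2.48) and miR-29c-3p in P100 against P40 (-2.06). Signs turned only in differences that did not pass: P40 against lysate for miR-29a-3p (no filter -0.016, block -0.18) and miR-29c-3p (library size only 0.33, the 2 groups alone 0.083, DESeq2 0.11), P40 against total exRNA for miR-29a-3p (equal depth 0.020) and miR-29b-3p (no filter -0.17, DESeq2 -0.062), and P100 against total exRNA for miR-29b-3p (equal depth 0.19). The cause was not tested.

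Leaving out 1 library at a time gave these ranges where a call or sign changed. miR-29b-3p had 1.83 to 2.64 in total exRNA, 1.77 to 2.64 in P40 and 0.94 to 2.40 in P100 against lysate, -1.22 to 0.20 in P100 against P40, and -0.34 to 0.32 in P40 and -1.19 to 0.23 in P100 against total exRNA. miR-29a-3p had -0.26 to 0.35 in P40 against lysate, -1.21 to -0.64 in P100 and 0.91 to 1.55 in S100 against total exRNA. miR-29c-3p had -0.20 to 0.40 in P40 and -2.09 to -1.44 in P100 against lysate and 1.03 to 1.68 in S100 against total exRNA. Family shares moved by less than 1 SD under summed counts. Leaving out 1 library cannot move a group mean by 1 SD, so stability of the shares cannot be judged by that limit. The widest counting limits were in P100, where the mean share of miR-29b-3p ran from 6.72% to 12.1% when 1 library was left out. With the 2 groups alone the filter dropped miR-29b-3p in the 6 comparisons without S100 and miR-29c-3p in P100 against P40, so no value was given. Depth limits miR-29b-3p most, with 0 to 6 counts per pellet library.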
